A study of Mus musculus with 6 samples.

Results

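The 10 genes described here encode core transcription factors of fat cell formation: Pparg, Cebpa, Cebpb, Cebpd, Rxra, Nr1h3, Ebf1, Ebf2, Zfp423 and Zfp467. They were picked by name for their textbook role, with earlier results of these data known, from the 21996 genes that had a probe set with 1 gene symbol, and all 10 were found. A probe set is the group of short array probes that reads a gene, and the 10 genes had 11 of the 33079 on the array. Ebf2 was the only member with more than 1, and the brighter probe set stood for it.

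The cells were adipocytes grown from C3H10T1/2, a mouse embryo fibroblast line that can be driven into several mesenchymal lineages in culture. They were taken at 9 days of differentiation. Every culture had been exposed to an adenovirus for 72 h at a multiplicity of infection of 50, and the virus drove a hairpin RNA from a U6 promoter. In the scramble group (3 biological replicates) the hairpin was a scrambled control, and in the Zc3h10 shRNA group (3 biological replicates) it was directed at Zc3h10, a gene of the CCCH zinc finger RNA-binding family. All cultures thus carried virus and hairpin, and each group received 1 viral construct. The sources used here do not give the position of the 72 h within the 9 days.

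Fat cell formation runs through a relay of transcription factors. C/EBPβ and C/EBPδ appear early after the hormonal stimulus and switch on PPARγ and C/EBPα, which then keep each other on and activate the genes of the mature adipocyte. PPARγ binds DNA as a pair with RXRα, the shared partner of many nuclear receptors, and the liver X receptor NR1H3 pairs with RXRα too. EBF1, EBF2 and ZFP423 act upstream or beside PPARγ in committing precursor cells, and ZFP467 favours fat over bone.

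Each culture was measured on 1 array, and the 6 arrays had nearly equal medians of 15.6 to 16.1 intensity units. The correlation of log2 values over all probe sets (r) was 0.992 to 0.994 for arrays of the same group and 0.985 to 0.988 for arrays of different groups. The targeted gene, Zc3h10, had intensities of 25.9, 39.0 and 35.3 on the scramble arrays and 25.2, 30.2 and 22.9 on the shRNA arrays. The groups overlapped, and the log2 change of −0.34 ± 0.17 (standard error, SE) was not called (limma, adjusted p = 0.301). The 95% confidence interval ran from 60.0 to 103.5% of the scramble level, so these arrays did not show the knockdown of the target. Zc3h10 was also dim, with mean log2 values of 5.04 and 4.70, not far above the background level given below. Markers of the labelled cell type were present: of 9 measured genes of mature fat cells, 8 lay above background in both groups, the exception being Lep. Background was set at a mean log2 of 4.37, the top of the central 95% range over 1375 genes for olfactory and vomeronasal receptors, which are mostly silent outside sensory tissue. Of 8 macrophage markers, 6 lay within background in each group, Adgre1, Ptprc and Csf1r among them, while Cd68 and Cd14 lay above it in both. Of 10 muscle markers, 6 lay within background in the scramble group and 8 in the shRNA group. Myod1 and Myf6 were within it in both groups, and Myog and Tnnt3 above it. Des, the gene of the muscle filament protein desmin, was at −0.76 (limma, adjusted p = 0.0437), a call lost without any 1 array. Its shRNA mean lay within background, so the size of the fall is not settled. Of 8 chondrocyte markers, 4 lay within background in the scramble group and 5 in the shRNA group. Sox9, Col2a1 and Col9a1 lay above it in both groups, Sox9 at mean log2 values of 9.58 and 9.53.

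In the Zc3h10 shRNA cells, 4 of the 10 core factors fell and none rose. Cebpa fell most, to 30.7% of its scramble level, and Pparg fell to 51.6%. Smaller falls were measured for Nr1h3, to 68.8%, and Rxra, to 77.7%. Cebpb, Cebpd, Ebf1, Ebf2, Zfp423 and Zfp467 did not pass the threshold. A gene passed when its limma p, adjusted by Benjamini-Hochberg over all probe sets, was under 0.05. By this rule 6.60% of the 21996 genes were lower, against 40.0% of the core factors, and 5.51% were higher. At an unadjusted p under 0.05, 6 core factors were lower and 0 higher, where 12.3% of all genes were lower and 12.9% higher. Without limma's moderation (an ordinary t statistic), 3 core factors were lower and 0 higher at an adjusted p under 0.05. The median log2 change of the 10 factors was −0.30, beside 0.01 for all genes. All 3 shRNA arrays lay below all 3 scramble arrays for 6 factors, where 15.2% of all genes showed this, and above them for 0 factors, where 16.7% of all genes did.

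**Figure D1:**
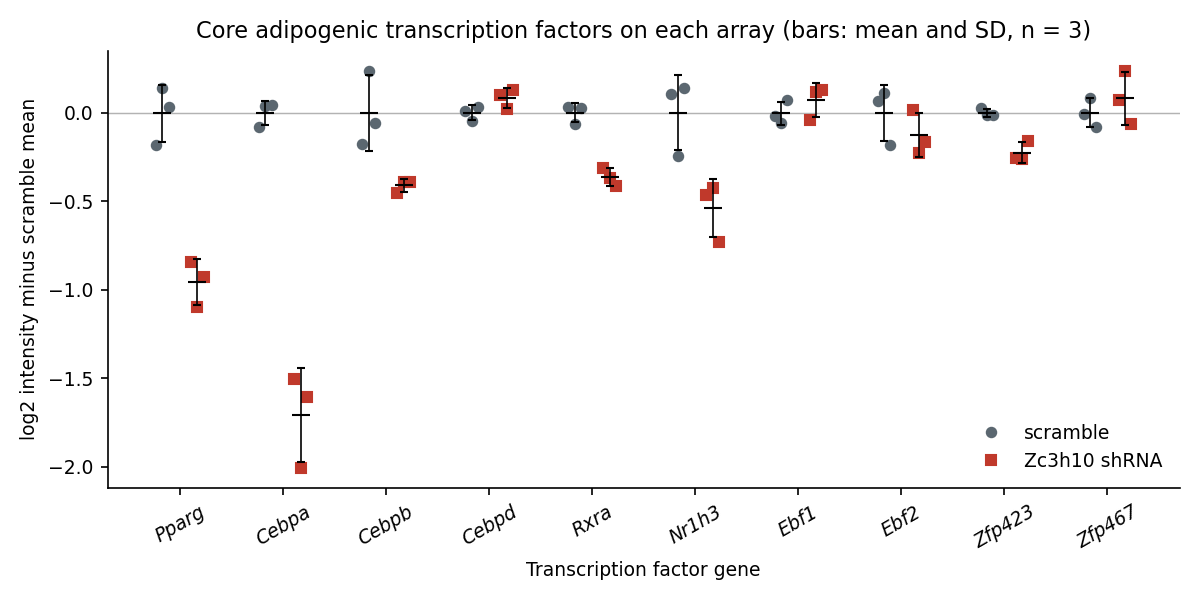
Log2 intensity of each core factor on each array, given as the difference from that gene's scramble mean. Circles are scramble arrays, squares are Zc3h10 shRNA arrays, and bars show the mean and SD of 3 arrays. The squares of Cebpa and Pparg lie far below their circles, those of Cebpb, Rxra, Nr1h3 and Zfp423 lie below with a small gap, and the groups overlap for the other 4 genes.

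Pparg, read by probe set 17461942 (Entrez gene 19016), encodes the nuclear receptor without which fat cells do not form. Its intensity was 1056, 1317 and 1217 units on scramble arrays 1 to 3 (mean 1197 ± 132, SD, n = 3). On shRNA arrays 1 to 3 it was 664, 557 and 628 (mean 616 ± 54.5, SD, n = 3). The brightest shRNA array stayed 0.67 log2 units below the dimmest scramble array. The log2 change was −0.96 ± 0.12 (SE), a 1.94-fold fall (limma, adjusted p = 0.00223), with a 95% confidence interval of 42.8 to 62.1% of the scramble level. Ranked by log2 change, Pparg was the 303rd lowest of 21996 genes. In RNA from whole cultures, fewer adipocytes and less RNA in each adipocyte cannot be told apart.

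Cebpa, read by probe set 17476728 (Entrez gene 12606), encodes the partner that sustains PPARγ in the mature cell. It was even across the scramble arrays, at 162, 175 and 176 units (mean 171 ± 7.89, SD, n = 3). On the shRNA arrays it was 60.4, 42.6 and 56.1 units (mean 53.0 ± 9.30, SD, n = 3). The groups were 1.42 log2 units apart at their nearest arrays, and shRNA replicate 2 was the lowest, as it was for Pparg. The log2 change was −1.71 ± 0.14 (SE), a 3.26-fold fall (limma, adjusted p = 0.000697), with a 95% confidence interval of 24.6 to 38.2%. Cebpa had the 35th lowest log2 change of all 21996 genes. The calls for Pparg and Cebpa held when any 1 array was left out, with adjusted p values of at most 0.0130 and 0.00603.

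The regions before the starts of these 2 genes are shown because they are the members that fell most and because each factor is known to act on the other's gene. The sequences are the 250 bases upstream of RefSeq starts on build GRCm38.p6, all on the plus strand and written 5′ to 3′, with the start itself just after the last base. Capitals mark matches on either strand to a C/EBP consensus (TTNNGNAA), to its core TTGCG, to the nuclear receptor core AGGTCA and to TATAAA. A stretch that matches both C/EBP motifs counts under each. RefSeq gives 3 starts for Pparg here. The most upstream is shown first, and the most downstream, the start of the fat-specific isoform PPARγ2 by textbook knowledge, is shown next. The probe set gave 1 value for all of them, so the isoforms were not separated.
Pparg, upstream start, chr6:115360894-115361143: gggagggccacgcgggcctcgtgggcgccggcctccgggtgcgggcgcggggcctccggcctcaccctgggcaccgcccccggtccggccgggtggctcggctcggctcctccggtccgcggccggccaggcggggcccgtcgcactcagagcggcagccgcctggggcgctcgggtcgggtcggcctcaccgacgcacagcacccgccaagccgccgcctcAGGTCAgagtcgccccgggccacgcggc
Pparg, downstream start, chr6:115421816-115422065: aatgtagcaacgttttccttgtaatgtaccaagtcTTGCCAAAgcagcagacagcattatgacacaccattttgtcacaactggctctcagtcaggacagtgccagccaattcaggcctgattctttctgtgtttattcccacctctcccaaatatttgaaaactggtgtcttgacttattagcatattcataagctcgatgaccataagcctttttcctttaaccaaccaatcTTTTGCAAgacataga
Cebpa, chr7:35119043-35119292: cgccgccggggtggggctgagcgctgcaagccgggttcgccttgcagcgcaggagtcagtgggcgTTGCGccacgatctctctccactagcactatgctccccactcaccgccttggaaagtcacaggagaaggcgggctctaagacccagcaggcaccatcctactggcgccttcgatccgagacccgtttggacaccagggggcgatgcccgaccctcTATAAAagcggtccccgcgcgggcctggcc

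The upstream Pparg window was 82.4% G and C and held 1 AGGTCA, 28 bases before the start. The downstream window was 40.8% G and C and held 2 matches to the C/EBP consensus, TTGCCAAA at 215 and TTTTGCAA at 16 bases before the start. The Cebpa window was 66.4% G and C, with TTGCG at 185 and TATAAA at 30 bases before the start. Over 32851 such windows of mouse genes, 36.8% held a TTNNGNAA match, 14.5% TTGCG, 14.0% AGGTCA and 12.4% TATAAA, and the median G and C content was 52.4%. These matches describe letters in a window and are no measured binding sites. Windows were listed for 8 of the 10 members, with 14 starts in all.

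The early C/EBP factors changed less. Cebpb (probe set 17379938, Entrez gene 12608), which drives the first wave of adipogenic gene expression, had intensities of 221, 294 and 239 on the scramble arrays and 182, 190.4 and 189.9 on the shRNA arrays. All shRNA arrays lay below the scramble arrays, but scramble replicate 2 stood above the other two scramble arrays. The log2 change was −0.41 ± 0.12 (SE) and did not pass (limma, adjusted p = 0.0739). The 95% interval ran from 62.2 to 91.0% of the scramble level. Without scramble replicate 2 the log2 change was −0.29 (adjusted p = 0.179). Cebpb passed where limma's prior was given an intensity trend (adjusted p = 0.0214).

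Cebpd (probe set 17323297, Entrez gene 12609), the companion of Cebpb in the early wave, was steady. Its intensities were 60.2, 57.9 and 61.2 on the scramble arrays and 64.0, 60.6 and 65.2 on the shRNA arrays. The groups overlapped. Its log2 change was 0.08 ± 0.08 (SE; limma, adjusted p = 0.661), and the 95% interval of 92.5 to 121% of the scramble level leaves out a fall as large as that of Cebpa or Pparg.

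Rxra and Nr1h3, the other 2 nuclear receptors, fell modestly. Rxra (probe set 17368550, Entrez gene 20181), the obligate partner of PPARγ, was at 308, 288 and 306 units on the scramble arrays and at 242, 232 and 226 on the shRNA arrays. The arrays of each group lay close together, with SDs of 10.9 and 8.29 units, and the groups did not overlap. Its log2 change was −0.36 ± 0.09 (SE; limma, adjusted p = 0.0333). The call was lost when any 1 array was left out, with adjusted p values of 0.0555 to 0.114, although the log2 change stayed between −0.40 and −0.34.

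Nr1h3 (probe set 17388177, Entrez gene 22259), the sterol-sensing liver X receptor α, was at 126, 98.7 and 129 units on the scramble arrays and at 84.6, 87.1 and 70.6 on the shRNA arrays. Scramble replicate 2 was the low array of its group and lay nearest to the shRNA arrays. The log2 change was −0.54 ± 0.14 (SE; limma, adjusted p = 0.0439). Leaving out scramble replicate 2 gave −0.66 (adjusted p = 0.0304). Leaving out any other array ended the call, at adjusted p values of 0.0751 to 0.140. Quantile scaling (adjusted p = 0.0563) and an ordinary t statistic (adjusted p = 0.164) also ended the call.

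The EBF and ZFP factors of precursor commitment did not pass the threshold. Ebf1 (probe set 17248691, Entrez gene 13591) was at 1327.5, 1283.4 and 1407.8 units on the scramble arrays and at 1305.5, 1462.3 and 1473.4 on the shRNA arrays. These groups overlapped, with a log2 change of 0.08 ± 0.09 (SE; limma, adjusted p = 0.720), with a 95% interval of 90.8 to 122% of the scramble level. Ebf2 (probe set 17301536, Entrez gene 13592), a factor of brown and beige precursors, was at 48.6, 50.1 and 41.0 units on the scramble arrays and at 46.9, 39.7 and 41.3 on the shRNA arrays. Its groups overlapped as well, and the change was −0.13 ± 0.11 (SE; limma, adjusted p = 0.610). The other Ebf2 probe set, 17307963, lay within background, at mean log2 values of 2.89 and 2.71.

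Zfp423 (probe set 17511482, Entrez gene 94187), a zinc finger factor of committed preadipocytes, was at 128, 125 and 124 units on the scramble arrays. On the shRNA arrays it was at 105, 105 and 113 units. The groups did not overlap and the SDs were small, at 1.92 and 4.49 units. The log2 change was −0.23 ± 0.08 (SE) and did not pass (limma, adjusted p = 0.158), although with 32 units added before log2 the adjusted p was 0.0136 at a log2 change of −0.18. Zfp467 (probe set 17466581, Entrez gene 68910) had mean log2 values of 4.27 and 4.35, within background in both groups. Its intensities of 18.3 to 20.5 units on the scramble arrays and 18.5 to 22.8 on the shRNA arrays therefore give no reliable change.

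**Figure D2:**
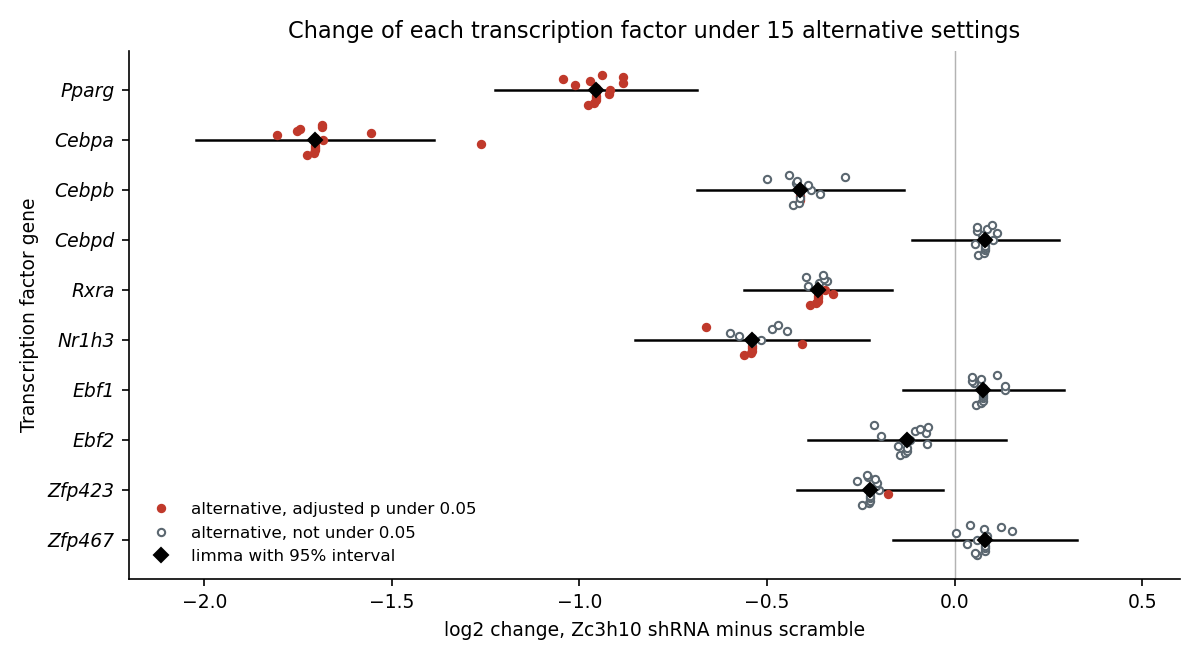
Log2 change of each core factor, Zc3h10 shRNA minus scramble, by limma (diamond, with its 95% confidence interval) and under 15 other settings (circles, spread vertically for legibility; filled where the adjusted p was under 0.05). Cebpa and Pparg passed in all 15, Rxra in 8, Nr1h3 in 7, Cebpb in 2, Zfp423 in 1 and the other 4 genes in 0.

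Whether members of a family or a receptor pair changed unequally was tested on the log2 difference between the genes within each array, for 5 pairs. Cebpa minus Cebpb was −0.44, −0.74 and −0.44 on the scramble arrays and −1.60, −2.16 and −1.76 on the shRNA arrays. The gap between these C/EBP genes therefore moved by −1.30. Against Cebpd, the change of Cebpa was −1.79, and that of Pparg against Rxra was −0.59. In these 3 pairs the groups did not overlap, which gave a two-sided exact permutation p of 0.1 each, the smallest that 3 against 3 arrays allow, and 0.167 after Benjamini-Hochberg adjustment over the 5 pairs. Ebf1 minus Ebf2 moved by 0.20, with overlapping groups and an exact permutation p of 0.2. The remaining pair, Zfp423 and Zfp467, is not read, because Zfp467 lay within background. The level of a gene cannot be set against that of another gene here, since probes differ in brightness, so only the movement of a difference is read.

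**Figure D3:**
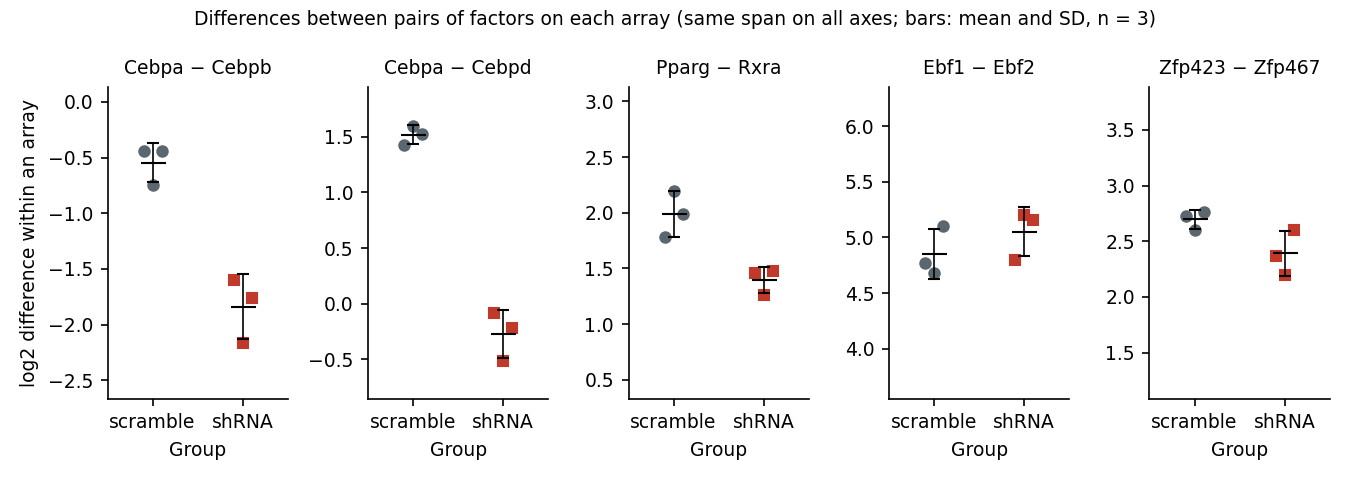
Log2 difference between the genes of each pair on each array. Circles are scramble arrays, squares are Zc3h10 shRNA arrays, bars show the mean and SD of 3 arrays, and every axis spans the same number of log2 units. The differences of Cebpa from Cebpb and from Cebpd separate the groups most widely, moving by −1.30 and −1.79. Zfp467 lay within background, so the last panel carries no reading of that gene.

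Paralogs and partners of the core factors mostly did not pass the threshold: of 13 measured, 2 fell, 1 rose and 10 did not pass. Ppara, the fatty acid oxidation receptor related to PPARγ, fell by 0.64 on the log2 scale (SE 0.10; limma, adjusted p = 0.00620). Cebpg, a C/EBP relative that pairs with other C/EBP proteins, was at −0.49 ± 0.10 (SE; adjusted p = 0.0216), a call lost when scramble replicate 2, scramble replicate 3, shRNA replicate 2 or shRNA replicate 3 was left out. Ebf3, a close relative of Ebf1 and Ebf2, rose by 0.55 ± 0.11 (SE; adjusted p = 0.0155), from 7.35, 7.46 and 7.50 to 7.87, 8.17 and 7.93 log2 units, and did not pass without scramble replicate 1 or 2. Ddit3, a C/EBP relative that blocks C/EBP dimers, was at −0.36 (adjusted p = 0.0628), and Rarg, a retinoic acid receptor, at 0.18 (adjusted p = 0.401). Close relatives can share probe sequence, so the values of paralogs are not fully independent.

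Other transcription factors that favour adipogenesis fell more often than they rose, with 8 of 18 lower, 1 higher and 9 not past the threshold, and a median log2 change of −0.20. The lipogenic regulators led. Mlxipl, the carbohydrate response factor ChREBP, was at 6.27, 6.84 and 6.61 log2 units on the scramble arrays and 5.27, 5.30 and 4.91 on the shRNA arrays. Srebf1, the insulin-responsive lipogenic factor SREBP1, was at −0.90 ± 0.09 (SE; limma, adjusted p = 0.00109), and Bcl6, a transcriptional repressor, at −1.11 ± 0.15. Xbp1, the secretory pathway factor, fell by 0.76 and Zbtb16 by 0.54 on the log2 scale. Klf15, Stat5a and Stat5b were the other 3 that fell, at −0.56, −0.44 and −0.36, and Nfib was the 1 that rose, at 0.40. The Nfib call was lost without any array other than scramble replicate 3, and the Klf15 call without any array other than scramble replicate 1. That of Stat5b was lost without any 1 array, and those of Stat5a and Zbtb16 each depended on 4 arrays in this way. Only 4 of the falls were counted when scramble replicate 2, scramble replicate 3, shRNA replicate 1 or shRNA replicate 2 was left out, and 3 with an ordinary t statistic.

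Regulators that restrain adipogenesis showed few calls: of 26 measured, 2 rose, 1 fell and 23 did not pass, with a median log2 change of 0.08. Trib2, a pseudokinase that promotes breakdown of C/EBPα protein, rose by 0.77 ± 0.09 (SE; limma, adjusted p = 0.00223), and the call held when any 1 array was left out. Nr2f2, the orphan receptor COUP-TFII, was at 0.46 ± 0.10 (SE; adjusted p = 0.0227), lost without any array other than shRNA replicate 1. Foxo1, which insulin signalling keeps out of the nucleus, was at −0.41 ± 0.09 (SE; adjusted p = 0.0283), lost without any array other than scramble replicate 1. Klf3 and Ddit3, next by p, did not pass, at 0.36 (adjusted p = 0.0515) and −0.36. Over 14 alternatives, between 1 and 5 of the restrainers were higher and between 0 and 2 lower.

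Coactivators and corepressors of the nuclear receptors were mostly not called, with 1 lower, 1 higher and 18 of 20 not past the threshold and a median of 0.13. Ppargc1b, a coactivator of mitochondrial genes, was at −0.74 ± 0.16 (SE; limma, adjusted p = 0.0249), lost when scramble replicate 2 or 3, or shRNA replicate 2 or 3, was left out. Crebbp, a histone acetyltransferase, was at 0.38 ± 0.08 (SE; adjusted p = 0.0250) and was lost without any 1 array. Ncoa2, Kmt2d and Sirt1 came next by p, at 0.39, 0.31 and −0.23, and did not pass. Over the same alternatives the number higher ran from 0, as with the replicate block, to 5, with 32 units added before log2, and the number lower from 0 to 2.

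Textbook target genes of PPARγ and C/EBPα nearly all fell, and those of liver X receptors fell in part. Of 21 measured direct targets of PPARγ, 20 fell, with a median log2 change of −1.01. The 1 that did not pass was Hilpda, a lipid droplet protein gene also driven by hypoxia, at −0.01. Plin1, the lipid droplet coat protein, went from 9.65, 9.76 and 9.76 to 8.60, 8.52 and 8.57 log2 units. Aqp7, the glycerol channel, went from 9.88, 9.99 and 10.01 to 8.50, 8.05 and 8.22, a 3.25-fold fall. The groups of both genes were far apart beside the spread of their arrays. Angptl4, a lipoprotein lipase inhibitor, was at −1.37 ± 0.10, the glycerol phosphate dehydrogenase gene Gpd1 at −1.50 ± 0.11 and Pck1, the enzyme of glyceride-glycerol synthesis, at −1.51 ± 0.12 (SE; limma, adjusted p of at most 0.000660 for these 5). The shRNA mean of Pck1, 4.41 log2 units, lay just above background, so the size of its fall is not settled. Leaving out any 1 array left 19 or 20 of these targets called, and an ordinary t statistic 17.

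Of 11 measured target genes of C/EBPα, 10 fell, with a median of −0.84. Gys2, a glycogen synthase, fell by 2.76 ± 0.22 on the log2 scale, and Slc2a4, the insulin-responsive glucose transporter, was at −1.53 ± 0.14 and the adipokine gene Retn at −1.25 ± 0.12 (SE; limma, adjusted p of at most 0.00100). This list shares 6 genes with that of PPARγ, Pck1, Retn and Adipoq among them, so the 2 counts are not independent. The exception was Lep, whose level lay within background in both groups.

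Of 11 measured target genes of liver X receptors, 7 fell, with a median of −0.62. The cholesterol exporters Abcg1 and Abca1 were at −0.78 ± 0.08 and −0.69 ± 0.10, and fatty acid synthase, Fasn, at −0.87 ± 0.09 (SE; limma, adjusted p of at most 0.00470). Lpl, the lipase that frees fatty acids from lipoproteins and a PPARγ target as well, was at −1.17 ± 0.11 (SE; adjusted p = 0.000893). Srebf1, described among the activators, is also in this list. The 4 that did not pass were Smpdl3a (−0.30), Pltp (−0.18), Apoe (−0.10) and Mylip (−0.02). All 11 measured targets had a negative log2 change, so the list differed in size of change and not in direction. With any 1 array left out 6 stayed called, and the call of Lpcat3 (−0.36) was lost each time.

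Of 10 measured genes of the brown fat programme, to which EBF2 and PRDM16 are linked, 6 fell and 4 did not pass, with a median of −0.86. Cidea, a lipid droplet protein of brown and beige cells, went from 9.64, 9.88 and 9.81 to 7.91, 7.12 and 7.12 log2 units. This gene is also in the PPARγ target list, so the counts of the lists are not independent. Elovl3, a fatty acid elongase, was at −2.11 ± 0.14 and the cytochrome oxidase subunit gene Cox8b at −1.72 ± 0.12 (SE; limma, adjusted p = 0.000658 for both). Otop1, a proton channel, and Ppara followed, at −1.08 and −0.64, and the other fall was that of the cytochrome oxidase subunit gene Cox7a1, at −1.88. The 4 that did not pass were Prdm16 itself, at −0.19 (adjusted p = 0.433), and the uncoupling protein gene Ucp1, the coactivator gene Ppargc1a and the deiodinase gene Dio2, all 3 within background in both groups.

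ZFP423 is known to sensitise cells to bone morphogenetic protein (BMP) signalling. Of 16 measured genes of that pathway, 5 rose, 0 fell and 11 did not pass, with a median log2 change of 0.27. The ligand gene Bmp4 rose from 8.54, 8.45 and 8.40 to 9.30, 9.53 and 9.63 log2 units, 2.03-fold, and the secreted BMP antagonist Grem1 from 5.32, 5.19 and 5.20 to 6.37, 6.13 and 6.13. Ligand and antagonist were thus both higher on every shRNA array. The BMP response genes Id2 and Id1 were at 0.93 ± 0.12 and 0.66 ± 0.11 (SE; limma, adjusted p = 0.00272 and 0.00878). The receptor gene Acvr1 was at 0.36 ± 0.09 (SE; adjusted p = 0.0449) and was lost without any 1 array. With an ordinary t statistic 3 of the 5 rises passed.

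**Figure D4:**
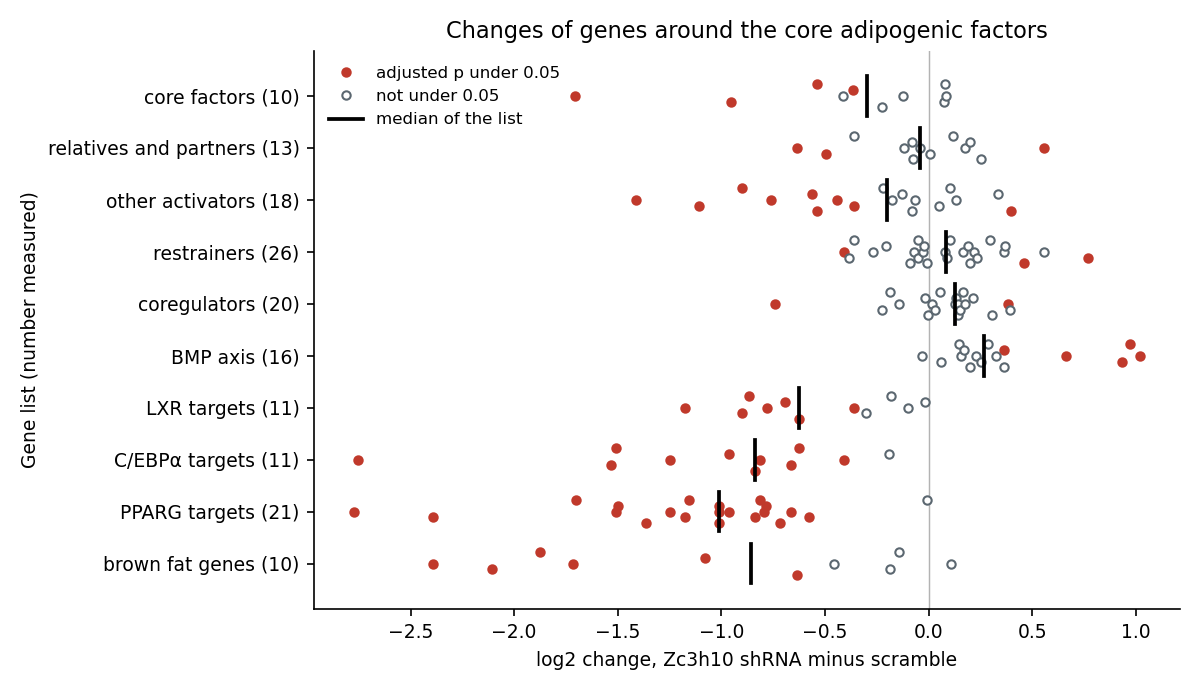
Log2 change of every measured gene of the core factors and of the lists around them, Zc3h10 shRNA minus scramble. Filled circles had an adjusted p under 0.05, open circles did not, black bars are medians, and the numbers in brackets give the genes measured. Target genes lie to the left, with medians of −1.01 for PPARγ and −0.84 for C/EBPα, whereas coregulators and BMP genes centre near or above 0.

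Most markers of mature adipocytes fell, as did Pparg and Cebpa, whereas markers of progenitors went both ways. Of the 9 measured genes of mature adipocytes, 8 fell, but 7 of the 9 are also in the PPARγ target list and 5 in that of C/EBPα, so this count repeats the target counts. Their summed intensity was 17521 to 19365 on the scramble arrays and 9614 to 10464 on the shRNA arrays. Among 11 genes that mark mesenchymal progenitors or fibroblasts, 2 rose (Prrx1 at 0.80 and Pdgfrb at 0.75) and 1 fell (Pdgfra at −0.66), with summed intensities of 10085 to 11609 and 11590 to 11881. Cd34, Dpp4 and Pi16, which mark early progenitors, lay within background in both groups. The part of cell composition in the falls of Pparg, Cebpa and their targets was not tested.

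The genes whose pattern over the 6 arrays was most like that of Pparg were sought by the root-mean-square (RMS) difference of log2 values, each gene centred on its own mean. Map7d2, a microtubule-binding protein gene, was nearest at 0.05 log2 units, followed by Slc5a6, the multivitamin transporter, at 0.05 and Rcl1, an RNA processing factor, at 0.05. For Cebpa they were Cyb5b, the outer mitochondrial membrane cytochrome b5, at 0.06, the epoxide hydrolase gene Ephx2 at 0.06 and Aqp7 at 0.07. The latter fell to a like extent, with log2 changes of −1.63, −1.79 and −1.70 beside −1.71 for Cebpa. Cebpd, the member with the largest rise though not past the threshold, was most like Ttc37, Psmc4 and Cad, at 0.02 each. Since all arrays belong to 2 groups, a small RMS difference here goes mainly with a group difference of like size.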

How the data were processed

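Total RNA of 6 cultures was hybridised to 1 single-colour Affymetrix array each, and replicate titles gave the 2 groups of 3. The deposited values are intensity summaries per probe set on a linear scale, and their quartiles are nearly equal between arrays. The submitters' processing notes list Partek 6.6 and Affymetrix Expression Console, but the sources used here do not give the background correction or normalization. Log2 was taken with no offset. The fit used lmFit and eBayes of limma 3.58.1 (R 4.3.3) on all 33079 probe sets (4 residual degrees of freedom, two-sided), with Benjamini-Hochberg adjustment over all of them and the 5% cutoff that the series' design text states. Single-symbol probe sets (23043) were named from the platform annotation, checked by gene number against RefSeq (GRCm38.p6), with the highest-mean probe set standing for a gene. The number of arrays limits precision.

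Members, lists, tests and alternatives were chosen with earlier results of these data known. All members were named, with up to 5 genes of smallest p for each list of regulators and targets and the 3 most like genes of Pparg, Cebpa and the member with the largest rise. Other genes named, such as Hilpda, Prdm16, Dio2, Klf15, Dpp4, Cd68 and the 4 liver X receptor targets that missed the threshold, were picked after their values were seen, and marker lists are given by counts with a few of their genes. Promoter windows came from RefSeq tables. Some listed genes were not analysed here. The code was tested on simulated data. Alternatives were quantile, cyclic loess and median scaling, an offset of 32, a filter on dim probe sets, an ordinary t statistic, an intensity trend, the replicate number as a block, all probe sets averaged per gene, and each array left out.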

Additional observations from a re-analysis of the deposited data

How the results depend on the processing

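The log2 changes of all 10 factors kept their sign under each of 15 alternatives. These settings reuse the same arrays, so a kept sign is no independent check. For Cebpd, Ebf1, Ebf2 and Zfp467 the groups overlapped in the reported analysis, so their kept signs settle no direction. The number of factors that fell was 4 in the reported analysis and 2 or 3 with 1 array left out, and Pparg and Cebpa were called every time. Rxra and Nr1h3 were the calls lost, and their largest adjusted p values were 0.114 and 0.164. With the replicate number as a block the count was 2 as well (Rxra at an adjusted p of 0.0780 and Nr1h3 at 0.0917), and 2455 probe sets were called. The numbers were not taken to pair the cultures in the reported analysis. Deviations from the group mean correlated at 0.08, −0.00464 and 0.04 for same-numbered arrays. For arrays of different numbers the values ran from −0.09 to 0.06. Deviations from a mean of 3 arrays balance out, so these values cannot settle whether cultures were paired. Over all probe sets 3238 were called, 1972 with an ordinary t statistic and 1807 to 2578 with 1 array left out. A fit with 1 array left out has fewer samples, and the cause of the lost calls was not tested under any setting. Averaging all probe sets of a gene also cut the number of tests, and Cebpb then passed (adjusted p = 0.0495). The 5 within-array differences kept their sign under the settings applied to them, which were chosen after seeing the data and reuse the same arrays. For Ebf1 minus Ebf2 and Zfp423 minus Zfp467 the groups overlapped in the reported analysis, so the kept sign settles no direction. Signal over background limits Zfp467 and the dimmer Ebf2 probe set.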

Other observations

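Osteoblast genes, an alternative fate of this line, did not move as 1 group. Of 6 measured, 3 fell and 1 rose. Ibsp, the bone sialoprotein gene, fell by 1.63 ± 0.19 (SE) on the log2 scale (limma, adjusted p = 0.00171) to a level within background, so the size of its fall is not settled. The alkaline phosphatase gene Alpl was at −0.65 ± 0.14 (SE; adjusted p = 0.0208), a call lost when scramble replicate 2, scramble replicate 3 or shRNA replicate 2 was left out. Dmp1, a matrix protein of osteocytes, rose by 0.91 ± 0.12 (SE; adjusted p = 0.00286) from a scramble level within background. Phex, an endopeptidase of bone mineralisation, was at −0.35 (adjusted p = 0.0741) and did not pass. Bglap, the osteocalcin gene, was at −0.49 ± 0.10 (SE; adjusted p = 0.0162) with both levels within background, and did not pass without scramble replicate 1, scramble replicate 3 or shRNA replicate 3.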
